A study of Mus musculus with 69 samples.

Results

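The endoplasmic reticulum chaperone genes described here are Hspa5, Hsp90b1, Calr, Pdia3, Pdia4, Pdia6, Sdf2l1, Dnajb9, Herpud1 and Xbp1. These 10 genes were taken by symbol, and 18 of the 45141 probe sets of the deposited table are annotated to them, 17 of which were bright enough to be tested. RNA came from the hearts of non-anesthetized adult male CD-1 mice of 20 to 35 g, and 100 ng per heart was hybridised to Affymetrix arrays. Mice of the injection arm received KCN subcutaneously, 8.0 mg/kg, with hearts collected after 1, 2, 4, 8 and 24 h and with volume-matched saline as the control at each time. HCN was breathed nose-only at 327 ppm and hearts were taken 1, 2, 4 and 24 h later, with air as the control at each time. The 18 groups held 4 arrays each except KCN 4 h, saline 2 h and saline 4 h with 3, which makes 37 arrays by injection and 32 by inhalation. Each array was taken as 1 mouse, and whole hearts were used, so the mRNA of all cardiac cell types is mixed. In such tissue fewer cells of a type and less RNA per cell cannot be told apart.

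Proteins that enter the secretory pathway fold in the endoplasmic reticulum, where chaperones hold unfolded chains, lectins retain unfinished glycoproteins and disulfide isomerases join cysteines. When unfolded protein accumulates, the sensors IRE1, PERK and ATF6 start the unfolded protein response, in which ATF6 and spliced XBP1 raise transcription of these same chaperone genes. In heart muscle the same membrane system stores the calcium of each beat, and calreticulin and the HSP70 and HSP90 chaperones of the lumen bind calcium. Cyanide inhibits cytochrome c oxidase and so respiration, and ATP is needed both for folding by HSPA5 and for calcium uptake.

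The best known DNA element of these genes is the ER stress response element (ERSE), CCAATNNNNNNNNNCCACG, bound by NF-Y at one end and by ATF6 or XBP1 at the other. The windows from 250 bases before to 50 bases after the start of each gene, taken from RefSeq on GRCm38.p6, were searched on both strands for it. They were also searched for ERSE-II, ATTGGNCCACG, and for the core of the unfolded protein response element, TGACGTGG. An ERSE was found in 4 of the 10 promoters, those of Hspa5, Hsp90b1, Calr and Pdia6, and in 39 of all 32851 promoters (0.119%). ERSE-II was found in the Herpud1 promoter and in 12 of all promoters (0.0365%). The TGACGTGG core was in 0 of the 10 and in 0.676% of all promoters. The short end CCACG alone, which every ERSE and ERSE-II contains, was in 8 of the 10 and in 32.8% of all promoters. Only exact matches were counted, so copies that differ by a base are missed. The ERSE was searched because it is already known from these genes, so the shares are descriptions and no test of enrichment. A match describes the sequence, and no binding was measured. The following promoters are printed 5′ to 3′ on the strand of the gene with the ERSE in capitals, since they belong to genes whose mRNA passed a test below. Pdia4, which also passed one, holds none of the longer elements and is not printed. Hspa5 lies at chr2:34771840-34772139 on the plus strand, Calr at chr8:84846882-84847181 on the minus strand, Pdia6 at chr12:17266339-17266638 on the plus strand and Sdf2l1 at chr16:17132334-17132633 on the minus strand. The Sdf2l1 window holds none of the 3 longer elements and is shown beside the others since its mRNA had the largest changes among the 10 genes.
Hspa5: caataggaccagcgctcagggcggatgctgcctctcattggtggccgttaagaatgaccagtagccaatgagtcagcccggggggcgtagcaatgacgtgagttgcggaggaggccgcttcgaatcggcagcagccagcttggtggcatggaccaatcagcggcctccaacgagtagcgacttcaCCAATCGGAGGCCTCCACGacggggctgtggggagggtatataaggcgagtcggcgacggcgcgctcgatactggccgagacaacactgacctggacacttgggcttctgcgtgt
Calr: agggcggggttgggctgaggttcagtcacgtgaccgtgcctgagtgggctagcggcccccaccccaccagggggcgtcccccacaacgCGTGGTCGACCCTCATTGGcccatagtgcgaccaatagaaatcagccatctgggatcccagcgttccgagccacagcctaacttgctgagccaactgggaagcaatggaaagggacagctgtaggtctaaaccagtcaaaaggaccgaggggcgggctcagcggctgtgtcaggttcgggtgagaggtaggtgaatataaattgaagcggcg
Pdia6: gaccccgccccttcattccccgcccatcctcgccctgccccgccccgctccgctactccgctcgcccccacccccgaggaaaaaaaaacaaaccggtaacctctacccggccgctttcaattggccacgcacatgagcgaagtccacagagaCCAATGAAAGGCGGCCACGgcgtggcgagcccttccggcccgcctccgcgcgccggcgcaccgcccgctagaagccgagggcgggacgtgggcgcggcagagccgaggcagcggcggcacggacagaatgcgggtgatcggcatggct
Sdf2l1: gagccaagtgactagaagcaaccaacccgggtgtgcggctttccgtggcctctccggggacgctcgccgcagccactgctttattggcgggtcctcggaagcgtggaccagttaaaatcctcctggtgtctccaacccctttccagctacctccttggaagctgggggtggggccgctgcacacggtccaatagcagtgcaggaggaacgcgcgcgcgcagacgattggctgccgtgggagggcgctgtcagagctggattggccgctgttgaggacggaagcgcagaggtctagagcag

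In Hspa5 the element begins 65 bases before the start, on the strand of the gene. In Pdia6 it begins 98 bases before the start on the same strand, and in Calr 162 bases before the start on the opposite strand, so that it is read there as its reverse complement. An ERSE is present more than once in the Hsp90b1 window at chr10:86705395-86705694 on the minus strand, which holds 2 matches.
Hsp90b1 at 212 bases before the start: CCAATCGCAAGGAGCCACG
Hsp90b1 at 107 bases before the start, opposite strand: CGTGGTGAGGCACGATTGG
Herpud1 ERSE-II at 52 bases before the start, chr8:94386179-94386478, plus strand: ATTGGGCCACG

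Values are deposited log2 signals, and a change is the mean log2 signal after cyanide minus that of the control of the same route and time, given ± SE from limma. A gene rose or fell where its Benjamini-Hochberg adjusted p over all 26773 tested probe sets was under 0.05. Levels are given as mean ± SD, and no level of 1 gene was set against that of another, since probe sets differ in brightness. Each gene is described by its brightest probe set unless another is named. The arrays correlated with one another at 0.952 to 0.994, and no level was compared across routes, because the arms differ in their distribution of values, with median 95th percentiles of 9.24 for injection and 9.52 for inhalation. Cardiomyocyte markers were bright in every array, with the summed signal of 5 of 6 listed genes between 15.16 and 15.54 on the log2 scale. RNA quality was followed by the actin ratio, the log2 signal of the array's 3' actin control minus that of its 5' one. Its means lay apart between cyanide and control groups in several comparisons, and it is given beside the results there. No difference passed after adjustment over the 9. At KCN 1 h, KCN 24 h and HCN 24 h the exact permutation p was 0.0286, the smallest that 4 against 4 allows, and 0.0857 adjusted. With so few arrays the adjusted test can hardly pass, so it does not show equal RNA quality. The limma SE and p-values use 1 spread per probe set, estimated within all 18 groups together and not from the compared arrays alone. The number of arrays limits the precision.

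Over the 9 comparisons, 3 of 90 gene tests rose, 6 fell and 81 did not pass. The changes that passed were those of Sdf2l1, Calr, Pdia4, Pdia6 and Hspa5. Hsp90b1, Pdia3, Dnajb9, Herpud1 and Xbp1 passed in none of the 9 comparisons on their brightest probe sets, although other probe sets of Hsp90b1 and Xbp1 did. The smallest change that passed was 0.38 in size and the largest that did not was 0.58.

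**Figure D1:**
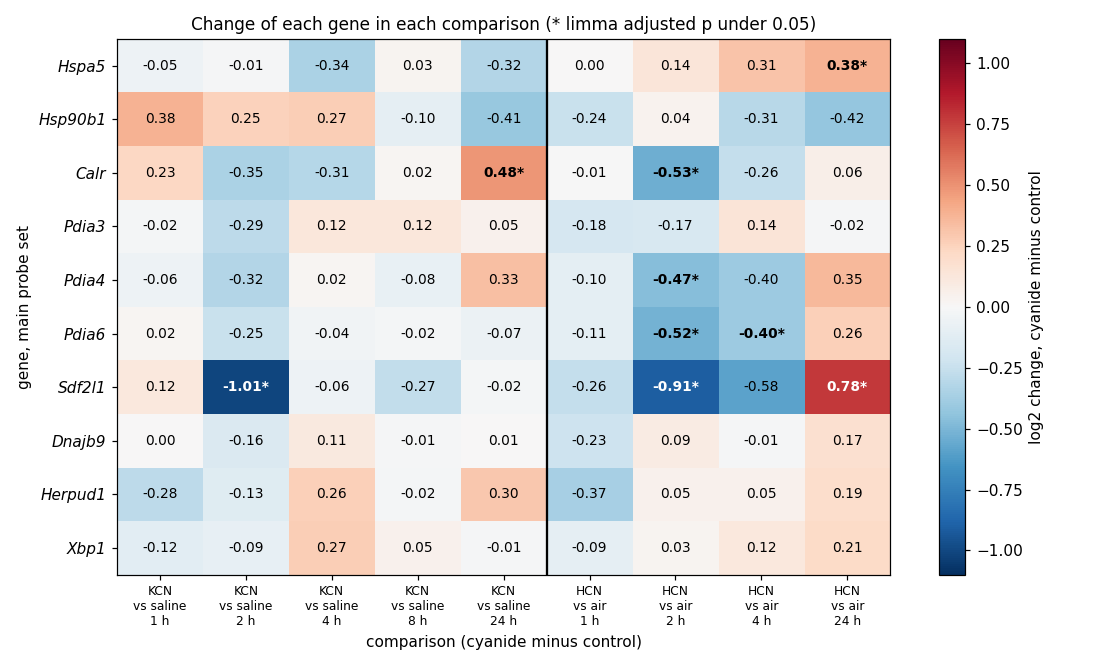
Log2 change, cyanide minus control, of each of the 10 genes (rows, brightest probe set) in each of the 9 comparisons (columns); colour and printed number give the change, and asterisks mark a limma adjusted p under 0.05. Sdf2l1 has both the largest fall, -1.01 at KCN 2 h, and the largest rise, 0.78 at HCN 24 h.

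KCN against saline asks what an injected dose changed, and at 1 h 0 of the 10 genes rose and 0 fell, against 1.57% and 2.52% of all tested probe sets (4.09% in either direction). By limma 1 had an unadjusted p under 0.05. The median change of the 10 was -0.01, the same as the median over all 12436 genes tested, -0.01. Hsp90b1, the HSP90 chaperone of the lumen that folds integrins and Toll-like receptors, had 10.35, 10.31, 10.32 and 10.37 in KCN hearts, against 10.29, 9.61, 9.94 and 9.97 in saline hearts. Every KCN array lay above every saline array, which held for 14.0% of all tested probe sets, and the change of 0.38 ± 0.16 did not pass (adjusted p = 0.172). Its other probe set differed by 0.05. The KCN arrays at 1 h also had a lower actin ratio, 0.480 ± 0.080 against 0.841 ± 0.172 in saline (exact permutation p = 0.0286, the smallest that 4 against 4 allows, and 0.0857 adjusted over the 9 comparisons). They carried more airway and lung epithelium signal, with a summed log2 level of 4 of 5 listed genes between 12.13 and 12.82, against 5.004 to 5.19 in saline. The part of either in the Hsp90b1 values was not tested.

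At 2 h after KCN 1 of the 10 genes fell, Sdf2l1, and 0 rose. Of the 10 genes 9 had a negative change, with a median of -0.20, against -0.05 over all genes tested, and the 1 fall stands beside 3.30% of all probe sets that fell and 3.29% that rose. Sdf2l1 fell to 5.002, 5.81, 5.34 and 5.46 in KCN hearts, against 6.14, 6.68 and 6.42 in saline hearts. All KCN arrays lay below all saline arrays. The change was -1.01 ± 0.26, or 0.497-fold (adjusted p = 0.00920), with means of 5.40 ± 0.34 (n = 4) after KCN and 6.41 ± 0.27 (n = 3) in saline. Sdf2l1 encodes a soluble partner of the HSPA5 system that works with the J-domain protein DNAJB11. Calr, the calcium-binding lectin chaperone, had a change of -0.35, Pdia4 one of -0.32, Pdia3 one of -0.29 and Pdia6 one of -0.25, and none of these passed. Pdia6, a disulfide isomerase, had 8.02, 8.18, 8.20 and 8.17 in KCN hearts, against 8.25, 8.38 and 8.54 in saline hearts. The Pdia6 groups did not overlap, as in 15.9% of all tested probe sets (adjusted p = 0.316). The actin ratio was 0.472 ± 0.083 after KCN and 0.422 ± 0.080 in saline (exact permutation p = 0.429). The summed endothelial signal (4 of 4 markers) lay between 9.20 and 9.54 after KCN, against 9.40 to 9.93 in saline. Airway and lung epithelium signal (4 of 5 listed genes) was 5.07 to 13.11 after KCN, against 4.93 to 5.04 in saline. Adipocyte signal (2 of 4) was 5.68 to 11.66 after KCN, against 6.97 to 7.47 in saline. The part of these in the values at 2 h was not tested. The saline 2 h group stood highest of the 5 saline groups for Calr, Pdia3, Pdia4, Pdia6 and Sdf2l1. Without its replicate 2 the Sdf2l1 change was -0.87 and no longer passed (adjusted p = 0.0670).

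At 4 h after KCN 0 of the 10 genes rose and 0 fell, against 1.21% and 1.05% of all tested probe sets (2.26% in either direction), with 2 genes at an unadjusted p under 0.05 by limma. Hspa5, the HSP70 chaperone of the lumen that also holds the stress sensors inactive, had 9.80, 9.99 and 9.83 in KCN hearts, against 10.30, 10.30 and 10.06 in saline hearts. The KCN arrays lay below the saline arrays, and the change of -0.34 ± 0.14 did not pass (adjusted p = 0.167). Calr was likewise below saline in every KCN array, at 9.90, 9.90 and 9.83 against 9.99, 10.28 and 10.29 (change -0.31, adjusted p = 0.366). Non-overlap of this kind held for 18.3% of all tested probe sets at 4 h. The other probe sets had changes of -0.13 for Hspa5 and -0.22 for Calr, with groups that overlapped, and neither passed. The KCN 4 h arrays carried more airway and lung epithelium signal (4 of 5 listed genes), 10.16 to 13.26 against 5.05 to 5.21 in saline, more adipocyte signal (2 of 4), 9.85 to 10.72 against 7.26 to 8.69, and more macrophage signal (4 of 4), 9.27 to 9.50 against 8.79 to 9.13. Their actin ratio was 0.590 ± 0.026, against 0.860 ± 0.310 in saline (exact permutation p = 0.2, where 3 against 3 allows no less than 0.1), and the part of these in the Hspa5 and Calr values was not tested. At 8 h 0 rose and 0 fell, against 0.138% and 0.198% (0.336% in either direction), and 0 had an unadjusted p under 0.05 by limma. The 8 h changes ran from -0.27 for Sdf2l1 to 0.12 for Pdia3, and the groups of all 10 genes overlapped, where 4.15% of all tested probe sets did not.

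At 24 h after KCN 1 of the 10 genes was called, Calr, a share near the 11.9% of all tested probe sets called in either direction. Of the 10 genes 1 rose and 0 fell, against 6.79% and 5.13% of all tested probe sets, and the median change was -0.00, against 0.05 over all genes. Calr had 10.32, 10.28, 10.33 and 10.24 in KCN hearts, against 9.76, 9.67, 9.86 and 9.95 in saline hearts. The KCN values were close together and all above the saline values, with a change of 0.48 ± 0.15, or 1.40-fold (adjusted p = 0.0234). On their brightest probe sets Hspa5 and Hsp90b1 lay on the other side. Hspa5 had 9.72, 9.84, 9.93 and 9.72 in KCN hearts, against 10.24, 10.18, 10.12 and 9.93 in saline hearts (change -0.32 ± 0.12, adjusted p = 0.0633). Hsp90b1 had 9.75, 10.10, 10.11 and 9.98 in KCN hearts, against 10.37, 10.35, 10.50 and 10.38 in saline hearts (change -0.41 ± 0.16, adjusted p = 0.0775). Neither gene's groups overlapped, as in 22.6% of all tested probe sets, and neither change passed. On the other probe sets the groups overlapped, with changes of -0.07 for Hspa5 (adjusted p = 0.828) and -0.14 for Hsp90b1 (adjusted p = 0.491).

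The actin ratio at 24 h was 0.473 ± 0.131 after KCN and 0.878 ± 0.091 in saline (exact permutation p = 0.0286, adjusted 0.0857). With that ratio as a covariate the Calr change was 0.50 (adjusted p = 0.0378) and Hsp90b1 fell as well. Summed macrophage markers (4 of 4) lay between 9.20 and 9.42 after KCN, against 8.69 to 9.07 in saline, and fibroblast markers (4 of 4) between 13.31 and 13.50, against 13.08 to 13.32. Airway and lung epithelium signal (4 of 5) had a mean of 10.26 after KCN, against 6.55 in saline. Adipocyte signal (2 of 4) had 10.17, against 7.78, and in both the arrays overlapped. The part of these in the Calr values was not tested. The Calr call was lost without KCN replicate 1 or 3 or saline replicate 1 or 2, where the change was 0.48, 0.47, 0.47 and 0.44. On the other Calr probe set the change was 0.39 (adjusted p = 0.0646).

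**Figure D2:**
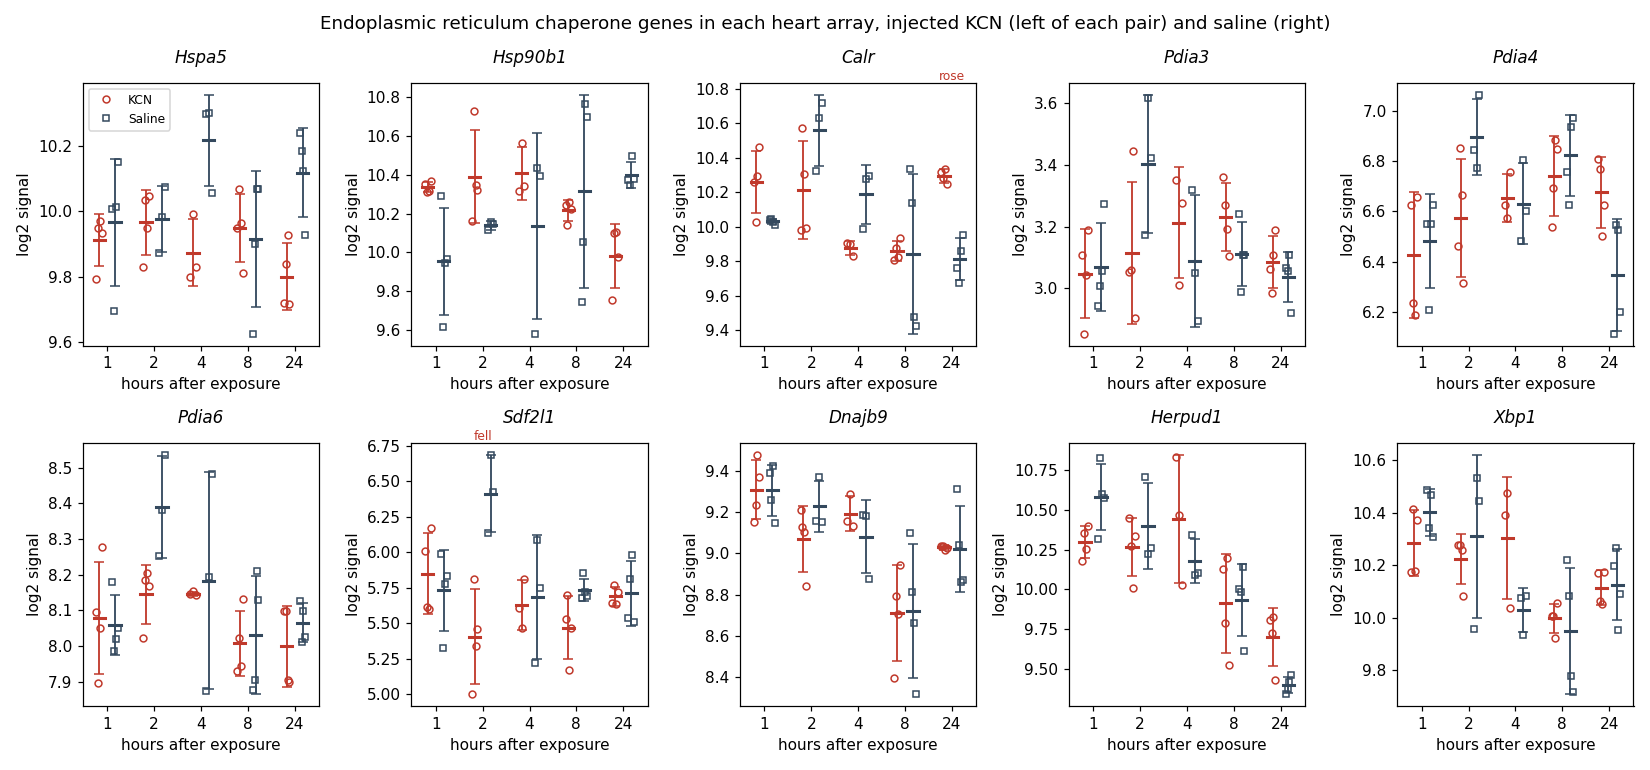
Log2 signal (vertical axis) of each gene in every injection array by hours after exposure (horizontal axis), with circles for KCN left of squares for saline; thick bars are group means and thin bars ± SD. Sdf2l1 at 2 h has all KCN arrays below saline and Calr at 24 h has all KCN arrays above it, marked fell and rose.

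HCN against air asks the same of the inhaled gas. At 1 h 0 of the 10 genes rose and 0 fell, against 1.38% and 1.30% of all tested probe sets (2.68% in either direction), with 1 gene at an unadjusted p under 0.05 by limma. A negative change was seen in 9 of the 10, and the median was -0.15, against -0.01 over all genes. Herpud1, a membrane protein of the machinery that exports misfolded chains to the proteasome, had 10.43, 11.28, 10.50 and 10.58 in HCN hearts, against 10.86, 11.52, 11.25 and 10.62 in air hearts. Both groups spread widely and overlapped, as did those of all 10 genes (9.18% of all tested probe sets did not), with a change of -0.37 ± 0.17 (adjusted p = 0.294), and the other Herpud1 probe set had -0.60 ± 0.18 (adjusted p = 0.0575).

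At 2 h after HCN 4 genes of folding and disulfide formation fell together. Calr, Pdia4, Pdia6 and Sdf2l1 fell and 0 rose, against 16.5% and 8.79% of all tested probe sets, and 25.3% were called in either direction. The median over the 10 was -0.07, against -0.07 over all genes, since the other 6 genes had changes between -0.17 and 0.14. Calr fell to 10.51, 10.13, 10.07 and 9.99 in HCN hearts, against 10.84, 10.77, 10.90 and 10.34 in air hearts (change -0.53 ± 0.15, 0.690-fold, adjusted p = 0.00546). HCN replicate 1 was the highest of its group and air replicate 4 the lowest of its own. Pdia4, a disulfide isomerase of several thioredoxin-like domains, fell to 6.57, 6.95, 6.49 and 6.70 in HCN hearts, against 7.20, 7.10, 7.38 and 6.90 in air hearts (change -0.47 ± 0.15, 0.723-fold, adjusted p = 0.0149). Pdia6 fell to 8.49, 8.02, 8.21 and 8.23 in HCN hearts, against 8.91, 8.86, 8.94 and 8.32 in air hearts (change -0.52 ± 0.13, 0.699-fold, adjusted p = 0.00168). Air replicate 4 was again low. Sdf2l1 fell to 6.25, 5.48, 5.02 and 5.77 in HCN hearts, against 7.01, 6.64, 6.59 and 5.91 in air hearts (change -0.91 ± 0.24, 0.533-fold, adjusted p = 0.00316). In all 4 genes the groups overlapped through air replicate 4, whose values lay within the range of the HCN arrays, while 18.1% of all tested probe sets had groups that did not overlap. Without that array the changes were -0.66 for Calr, -0.66 for Pdia6 and -1.12 for Sdf2l1.

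Hspa5 at 2 h had 10.60 ± 0.12 in HCN hearts and 10.46 ± 0.17 in air hearts (change 0.14, adjusted p = 0.425), and Hsp90b1 had 10.52 ± 0.19 and 10.48 ± 0.23 in the same order. The confidence intervals of these changes, -0.10 to 0.37 and -0.28 to 0.36, do not reach the changes estimated for Calr, Pdia4, Pdia6 and Sdf2l1. No test of the difference between genes was made. The response genes Dnajb9 and Xbp1 had changes of 0.09 and 0.03 and also did not pass.

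The mean actin ratio at 2 h was higher after HCN, with arrays that overlapped and a test that did not pass. It was 1.22 ± 0.61 after HCN, with arrays from 0.645 to 1.95, against 0.453 ± 0.143 in air, from 0.317 to 0.652 (exact permutation p = 0.0571, adjusted 0.129). Air replicate 4, low for all 4 genes, had the highest ratio of the air arrays. With the ratio as a covariate Calr fell (-0.57, adjusted p = 0.0412), and the changes of Pdia4, Pdia6 and Sdf2l1 were -0.43, -0.34 and -0.86 and did not pass (adjusted p = 0.133, 0.156 and 0.0516). In a fit of only these arrays none of the 4 passed, with adjusted p from 0.0509 for Calr to 0.0866 for Pdia4. The Pdia4 call was also lost without HCN replicate 3 (-0.40) or air replicate 3 (-0.39). Summed endothelial markers (4 of 4) were at 8.98 to 9.53 after HCN, against 9.55 to 9.73 in air, fibroblast markers (4 of 4) at 13.47 to 13.59, against 13.15 to 13.37, and neutrophil markers (2 of 4) at 7.95 to 10.01, against 6.46 to 8.42. Their part in the 4 falls was not tested.

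**Figure D3:**
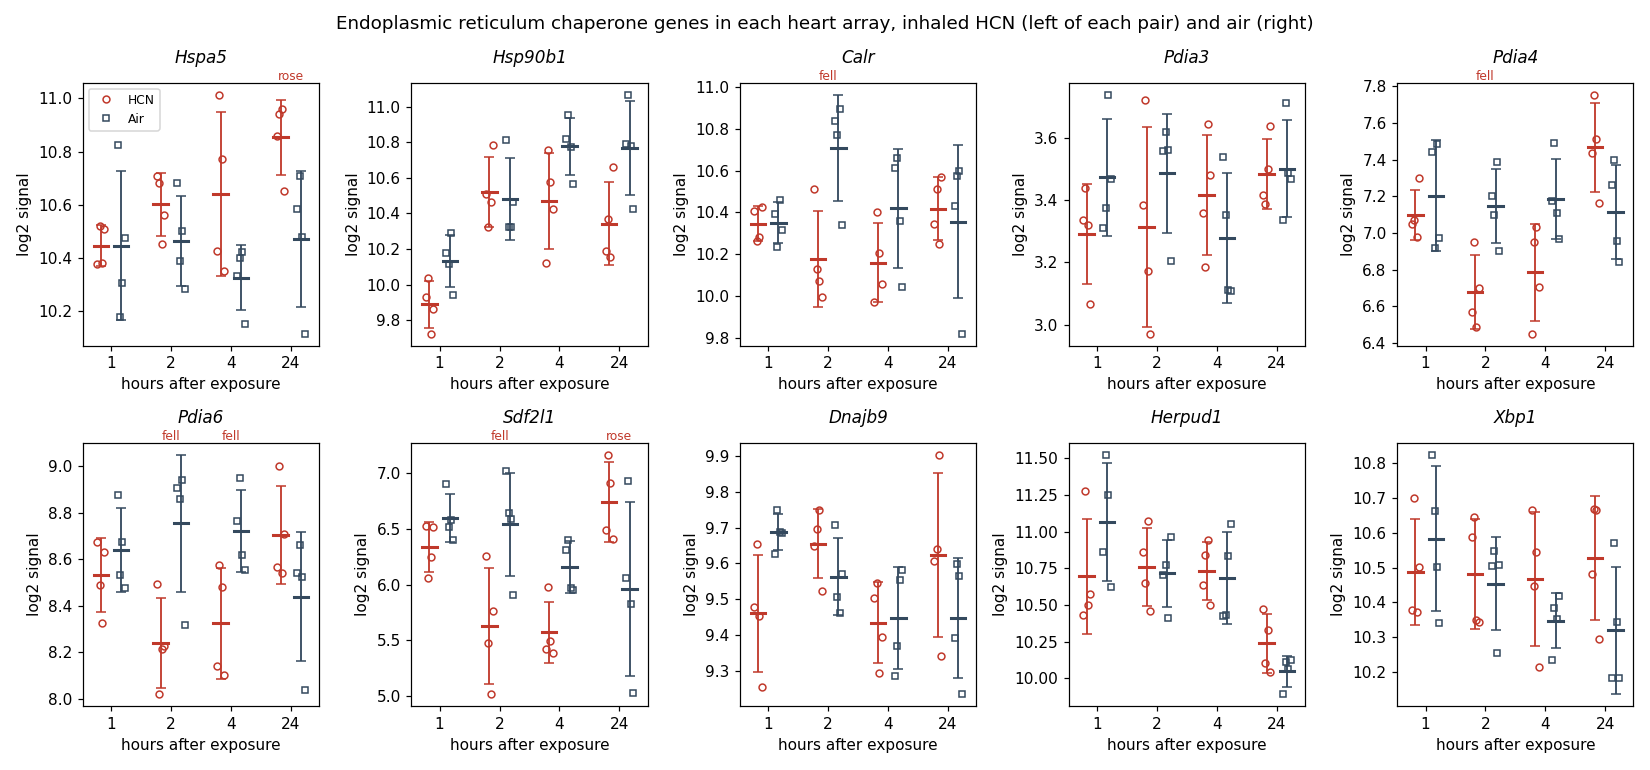
Log2 signal (vertical axis) of each gene in every inhalation array by hours after exposure (horizontal axis), with circles for HCN left of squares for air; thick bars are group means and thin bars ± SD. Calr, Pdia4, Pdia6 and Sdf2l1 are lower after HCN at 2 h, with 1 low air array, and Hspa5 and Sdf2l1 are higher at 24 h.

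**Figure D4:**
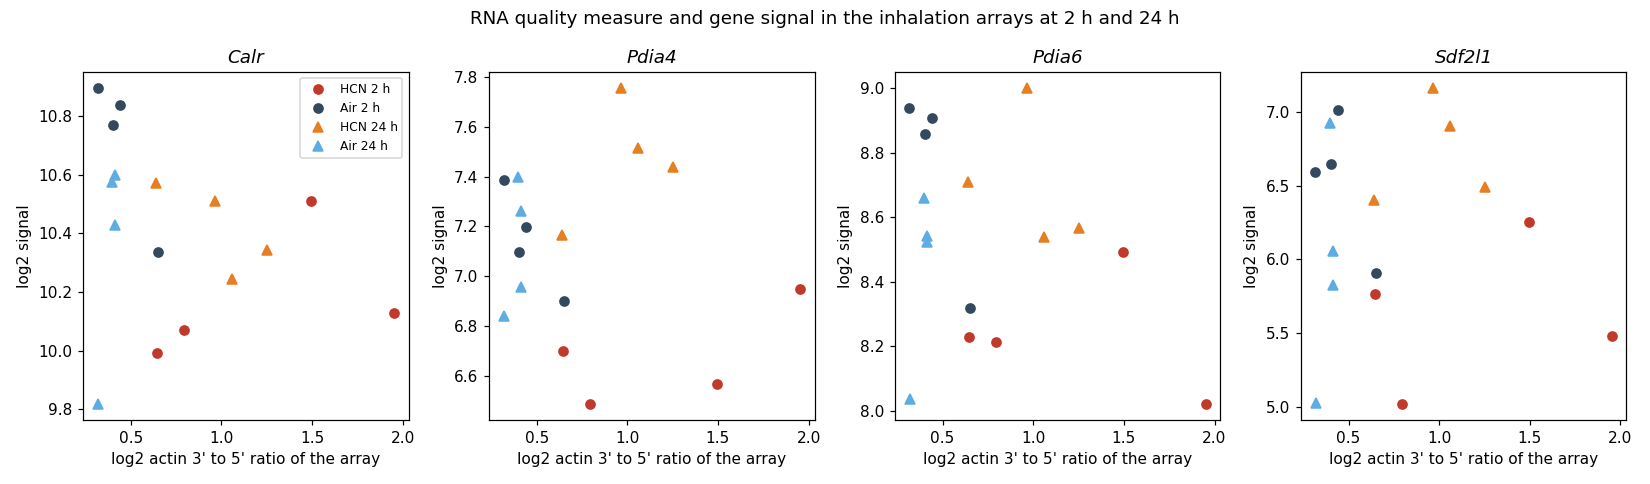
Log2 signal of Calr, Pdia4, Pdia6 and Sdf2l1 (vertical axes) against the log2 actin 3' to 5' ratio of the same array (horizontal axes) for the HCN and air arrays at 2 and 24 h. The HCN arrays reach ratios of 1.95 at 2 h and 1.25 at 24 h, while the air arrays end at 0.652.

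At 4 h after HCN 1 of the 10 genes fell and 0 rose, against 4.48% and 2.87% of all tested probe sets (7.35% in either direction), with a median of -0.14, against -0.05 over all genes. Pdia6 fell to 8.14, 8.58, 8.48 and 8.10 in HCN hearts, against 8.77, 8.95, 8.62 and 8.55 in air hearts (change -0.40 ± 0.13, 0.760-fold, adjusted p = 0.0422). The groups overlapped by 1 HCN array, replicate 2, which lay just above the lowest air array, and 13.3% of all tested probe sets did not overlap. Sdf2l1 had 5.43, 5.97, 5.50 and 5.39 in HCN hearts, against 6.31, 6.40, 5.97 and 5.95 in air hearts (change -0.58, adjusted p = 0.131), and Pdia4 had a change of -0.40 (adjusted p = 0.0891). Hspa5 had 10.43, 11.01, 10.77 and 10.35 in HCN hearts, against 10.33, 10.40, 10.42 and 10.15 in air hearts. HCN replicates 2 and 3 were high, replicate 1 lay just above the highest air array and replicate 4 lay within the air range, with a change of 0.31 ± 0.12 (adjusted p = 0.0918). The actin ratios were 0.411 ± 0.043 after HCN and 0.400 ± 0.038 in air (exact permutation p = 0.714). The summed neutrophil signal (2 of 4 markers) was 8.40 to 9.31 after HCN, against 6.20 to 6.91 in air, and its part was not tested. The Pdia6 call was lost with median centring (-0.39), with no filter, with separate fits per route and in a fit of only these groups. It was also lost without HCN replicate 1 or 4 or air replicate 1 or 2, with changes of -0.34, -0.32, -0.38 and -0.32.

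At 24 h after HCN 2 of the 10 genes rose, Hspa5 and Sdf2l1, and 0 fell, against 5.08% and 9.24% of all tested probe sets (14.3% in either direction). The changes of 8 of the 10 were positive, with a median of 0.20, against 0.07 over all genes, and Hsp90b1 had -0.42. Hspa5 rose to 10.86, 10.94, 10.96 and 10.65 in HCN hearts, against 10.58, 10.71, 10.48 and 10.12 in air hearts (change 0.38 ± 0.12, 1.30-fold, adjusted p = 0.0194). HCN replicate 4 and air replicate 2 crossed, where 20.1% of all tested probe sets had groups that did not overlap. Sdf2l1 rose to 6.49, 7.16, 6.91 and 6.40 in HCN hearts, against 6.05, 6.93, 5.83 and 5.03 in air hearts (change 0.78 ± 0.24, 1.72-fold, adjusted p = 0.0181). Air replicate 2 lay within the HCN range and air replicate 4 far below it, and the air SD of 0.78 compares with 0.36 after HCN. Pdia4 and Pdia6 had changes of 0.35 and 0.26 that did not pass, and Calr had 0.06.

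The actin ratio at HCN 24 h was 0.979 ± 0.255, against 0.386 ± 0.045 in air (exact permutation p = 0.0286, adjusted 0.0857), and with it as a covariate the changes were 0.29 for Hspa5 (adjusted p = 0.304) and 0.81 for Sdf2l1 (adjusted p = 0.108). The summed endothelial signal (4 of 4 markers) was 9.40 to 9.58 after HCN, against 9.67 to 9.97 in air, and its part was not tested. Neither gene passed with separate fits per route (adjusted p = 0.0566 and 0.0628) or in a fit of only these groups (adjusted p = 0.0613 and 0.154). Hspa5 was not called without HCN replicate 2 (0.35), HCN replicate 3 (0.35) or air replicate 4 (0.26), and Sdf2l1 was not called without HCN replicate 2 (0.64), HCN replicate 3 (0.73), air replicate 3 (0.74) or air replicate 4 (0.47).

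The difference between the routes, the HCN change minus the KCN change at the same time, was tested in the same fit. For the 1 h samples it passed in 0 of 10 genes, against 0.198% of all tested probe sets, with 1 gene at an unadjusted p under 0.05 by limma. For 2 h it passed in 0, against 5.73%, with 0 at an unadjusted p under 0.05. It passed in 1 gene at 4 h, against 1.87%, and in 1 gene at 24 h, against 18.8%, and both times this was Hspa5. Its change was 0.31 after HCN and -0.34 after KCN at 4 h, a difference of 0.66 ± 0.18 (adjusted p = 0.0388), and 0.38 after HCN and -0.32 after KCN at 24 h, a difference of 0.70 ± 0.17 (adjusted p = 0.00149). The 24 h difference passed without each array in turn, at 0.58 to 0.78. The 4 h difference ranged from 0.54 to 0.76 and was lost without any 1 of HCN replicates 2 and 3, air replicates 1, 2 and 4, KCN replicates 1 and 3 and saline replicates 1 and 2. The KCN 4 h arrays in that difference are those with the airway, adipocyte and macrophage signal given above, whose part in it was not tested. At 24 h the actin ratio also moved in opposite directions, by 0.59 with HCN and -0.41 with KCN, and its part in the difference was not tested. On the other Hspa5 probe set the changes were 0.17 after HCN and -0.13 after KCN at 4 h. At 24 h they were 0.41 and -0.07 in the same order, and none of these changes passed. Sdf2l1 at 24 h had a difference of 0.80 (adjusted p = 0.0869) and Calr one of -0.42 (adjusted p = 0.161).

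In the control groups several of these mRNAs differed between the times of harvest. Across the 5 saline groups 5 of 10 genes differed by an F test, against 38.3% of all tested probe sets, and across the 4 air groups 2 of 10, against 16.7%. Herpud1 differed most in both. Its saline mean was 10.58 at 1 h and 9.40 at 24 h (adjusted p = 1.73e-06), and its air mean was 11.06 at 1 h and 10.05 at 24 h (adjusted p = 0.000193). The Herpud1 means of the KCN groups were 10.30, 10.27, 10.44, 9.91 and 9.70 at 1, 2, 4, 8 and 24 h, and those of the HCN groups 10.70, 10.76, 10.73 and 10.24 at 1, 2, 4 and 24 h. They were lowest at 24 h and highest at KCN 4 h (SD 0.40, n = 3) and HCN 2 h (SD 0.26), and both control series were highest at 1 h. The 2 highest cyanide means differed from those at 1 h by less than these SDs. No Herpud1 change passed, so a shift in its time course was not shown. Calr differed over the saline groups by 0.75, with 10.56 at 2 h and 9.81 at 24 h (adjusted p = 0.000908). Dnajb9, a J-domain partner of HSPA5 that restrains IRE1, differed by 0.58, Pdia4 by 0.55 and Xbp1 by 0.45 over the saline groups. Hsp90b1 differed by 0.64 over the air groups, lowest at 1 h (10.13) and highest at 4 h (10.78). The saline range of Calr exceeds its change at KCN 24 h, and the saline range of Herpud1 exceeds every cyanide change of that gene, which ran from -0.37 to 0.30.

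Dnajb9, Pdia3 and Xbp1 passed no test on their brightest probe sets. Dnajb9 changes ran from -0.23 at HCN 1 h to 0.17 at HCN 24 h, with arrays from 8.32 to 9.48 in the injection arm and from 9.24 to 9.90 in the inhalation arm. Its KCN 24 h arrays agreed to an SD of 0.01, against 0.21 in saline. Pdia3, the isomerase that works with calreticulin on glycoproteins, is represented by 1 dim probe set with a mean of 3.26, close to the filter threshold of 3.23. With a signal this low a change of Pdia3 mRNA was hardly measurable. Its changes ran from -0.29 to 0.14, and the interval at HCN 2 h was -0.43 to 0.08. The SE there, 0.13, was no larger than that of Pdia6, so the limit lies in the low signal and not in the spread. Xbp1, the transcription factor whose mRNA IRE1 splices, had changes from -0.12 to 0.27 on its brightest probe set, and these arrays do not report splicing.

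Probe sets of the same gene did not always move together. Hsp90b1 is measured by 1438040_PM_a_at, used above, and by 1415889_PM_a_at. On the second, Hsp90b1 fell at KCN 2 h, to 9.998, 10.23, 10.09 and 9.76 in KCN hearts, against 10.30, 10.40 and 10.66 in saline hearts (-0.44 ± 0.12, adjusted p = 0.0209), where the first had 0.25. This call was lost with the replicate block (-0.35, adjusted p = 0.162), in a fit of only these groups (adjusted p = 0.114) and without saline replicate 3 (-0.33) or KCN replicate 4. On the second it rose at HCN 24 h, to 10.90, 11.06, 10.90 and 10.75 in HCN hearts, against 10.66, 10.72, 10.57 and 10.24 in air hearts (0.36 ± 0.11, adjusted p = 0.0269). That call was lost with the actin ratio as a covariate (0.33, adjusted p = 0.209) and without HCN replicate 1, 2 or 3 or air replicate 4 (0.25 without the last). There the first probe set had 10.34 ± 0.23 in HCN hearts and 10.77 ± 0.26 in air hearts (-0.42, adjusted p = 0.0638). The HCN 24 h direction of Hsp90b1 thus depends on the probe set. The 2 Calr probe sets both fell at HCN 2 h (-0.53 and -0.45), the second not with the actin covariate or in a fit of only these groups, and the second Hspa5 probe set had 0.41 at HCN 24 h (adjusted p = 0.0670).

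Xbp1 has 4 tested probe sets, and at HCN 2 h they went in both directions. On 1420886_PM_a_at Xbp1 fell, to 9.42, 9.30, 9.68 and 9.73 in HCN hearts, against 10.20, 10.07, 9.93 and 9.84 in air hearts (-0.48 ± 0.13, adjusted p = 0.00593). On 1420011_PM_s_at it rose, to 9.24, 9.10, 8.91 and 8.92 in HCN hearts, against 8.80, 8.59, 8.59 and 8.53 in air hearts (0.42 ± 0.14, adjusted p = 0.0222). On the dim 1420012_PM_at it rose by 0.50 ± 0.16 (adjusted p = 0.0145), while the brightest probe set had 0.03. The groups did not overlap on any of the 3 that changed, as in 18.1% of all tested probe sets at HCN 2 h. The dim probe set also fell at KCN 1 h, with means of 3.08 ± 0.18 in KCN hearts and 4.22 ± 0.27 in saline hearts (-1.14 ± 0.16, adjusted p = 7.33e-07), and at KCN 24 h (-0.74 ± 0.16, adjusted p = 0.000863). The mean actin ratio was lower after KCN at 1, 4 and 24 h and higher after HCN at 2 and 24 h, and the dim probe set had changes of 0.30 at KCN 4 h (adjusted p = 0.422) and 0.42 at HCN 24 h (adjusted p = 0.0597), which did not pass. With the ratio as a covariate the dim probe set had -0.96 at KCN 1 h, -0.55 at KCN 24 h and 0.12 at HCN 2 h, where it no longer passed. At HCN 2 h 1420886_PM_a_at then had -0.33 and 1420011_PM_s_at 0.28, and neither passed. The calls were also lost in part otherwise, that of 1420011_PM_s_at when adjusted over the 9 comparisons together and without HCN replicate 1 or 2 or air replicate 3 or 4, and that of 1420012_PM_at in a fit of only these groups and without HCN replicate 2.

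**Figure D5:**
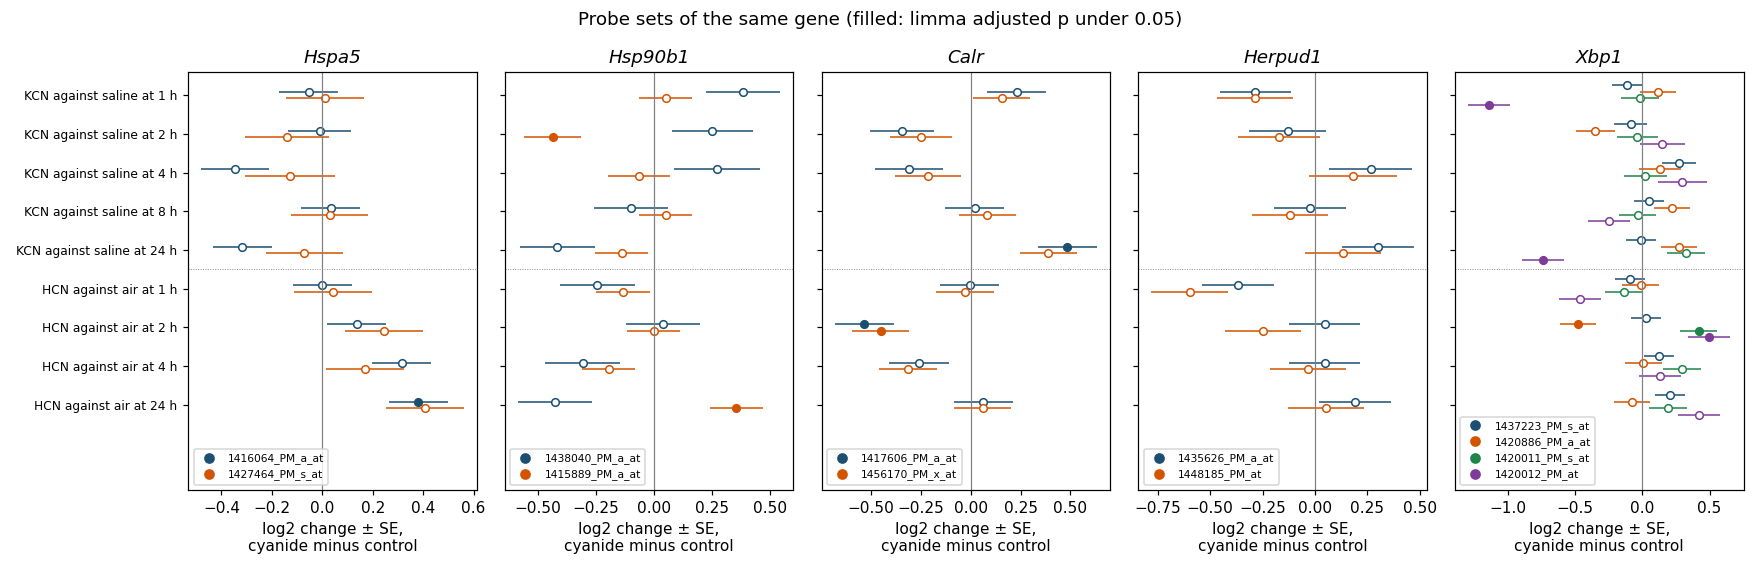
Log2 change ± SE (horizontal axes), cyanide minus control, of every tested probe set of the 5 genes with more than 1, in the 9 comparisons (rows, KCN above HCN); filled points have a limma adjusted p under 0.05. The Hsp90b1 probe sets part at HCN 24 h (-0.42 and 0.36), and the Xbp1 probe sets part at HCN 2 h (-0.48, 0.03, 0.42 and 0.50).

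The other genes of the pathway, 48 measured of 50 listed, changed in both directions. In HCN hearts at 2 h 3 of the 48 rose and 10 fell, where 8.79% of all tested probe sets rose and 16.5% fell. Of the 10, 7 were among the 22 other chaperones and folding enzymes, of which 0 rose and whose median change was -0.14, against -0.07 over all genes. Sec62, a subunit of the translocation channel, rose by 0.55 ± 0.09 (adjusted p = 1.44e-05). Derl1, a channel component of protein disposal, fell (-0.66 ± 0.13, adjusted p = 6.89e-05), as did the oxidoreductase-like chaperone Erp29 (-0.39 ± 0.08, adjusted p = 0.000159) and the glucosidase subunit Ganab (-0.72 ± 0.15, adjusted p = 0.000312). In HCN hearts at 24 h 4 rose and 4 fell, where 5.08% and 9.24% of all tested probe sets did. The sensor Atf6 rose by 0.45 ± 0.14 and the oxidase Ero1a, which supplies disulfides to the isomerases, by 0.50 ± 0.15, while Derl1 and the HSPA5 partner Dnajc3 fell (-0.62 ± 0.13 and -0.42 ± 0.13).

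At HCN 1 h 1 rose and 0 fell (1.38% and 1.30% of all tested probe sets). It was Ppp1r15a, which restores translation by dephosphorylating eIF2alpha, with 8.34 ± 0.22 in HCN hearts and 6.72 ± 0.38 in air hearts (1.62 ± 0.21, adjusted p = 1.89e-07). At HCN 4 h 0 rose and 2 fell (2.87% and 4.48% of all), the transcription factor Ddit3 (-0.62 ± 0.18) and the ubiquitin ligase Syvn1 (-0.40 ± 0.13). At KCN 1 h 2 rose and 0 fell (1.57% and 2.52% of all): Ppp1r15a rose by 0.69 ± 0.21 and the prolyl isomerase Ppib by 0.25 ± 0.07. At KCN 2 h 3 rose and 1 fell (3.29% and 3.30% of all): the translocation protein Sec63, the glutathione-degrading Chac1 and the glycoprotein folding sensor Uggt1 rose by 0.64 ± 0.15, 0.93 ± 0.28 and 0.55 ± 0.17, and Ddit3 fell (-0.74 ± 0.19). At KCN 24 h 6 rose and 4 fell, where 6.79% and 5.13% of all tested probe sets did. Of these Os9, a lectin of protein disposal, rose by 0.55 ± 0.13, Ppp1r15a by 0.88 ± 0.21, Syvn1 by 0.52 ± 0.13 and the glucosidase subunit Prkcsh by 0.43 ± 0.11. In KCN hearts at 4 h 1 rose and 0 fell (1.21% and 1.05% of all), the riser being Sec62 (0.38 ± 0.11), and in those at 8 h 0 rose and 1 fell (0.138% and 0.198% of all), which was Sdf2, a paralog of Sdf2l1 (-0.26 ± 0.06). The 2 genes without a probe set of a single symbol, Vcp and Sec61g, were not analysed here.

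Across the 18 group means, each centred on its route, the 10 genes did not form 1 profile. The 45 pairs of genes had a median Pearson r of 0.11, from -0.37 for Sdf2l1 with Hsp90b1 to 0.87 for Xbp1 with Dnajb9, and 30 were positive. The group means share arrays between genes and controls between comparisons, so these are descriptions. Among Sdf2l1, Pdia4, Pdia6 and Calr r was 0.82 for Pdia6 with Sdf2l1, 0.70 for Pdia4 with Sdf2l1, 0.69 for Pdia4 with Pdia6, 0.67 for Calr with Pdia6, 0.60 for Calr with Sdf2l1 and 0.39 for Calr with Pdia4, below the 0.56 of Pdia3 with Pdia4. These genes were grouped because they fell together at HCN 2 h, and the HCN 2 h means enter each r. Their r values are thus not independent of that choice. Dnajb9, Herpud1 and Xbp1 held the highest pair and an r of 0.63 between Herpud1 and Xbp1. With the average of the 10, Pdia6 had r = 0.85, Sdf2l1 0.80 and Calr 0.73, while Hspa5 had 0.04 and Hsp90b1 -0.15. Among 8745 genes with a range of at least 0.5, those most like that average over the 18 groups were Tardbp (0.91), Zfp346 (0.88), Trim39 (0.86), Mtmr4 (0.85), Dop1b (0.84) and Ipo9 (0.84).

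Sdf2l1, Pdia6, Calr and Hspa5, whose promoters are printed above, differed in course. Of the 4 genes with an ERSE match, Calr and Pdia6 fell at HCN 2 h while Hspa5 and the brightest Hsp90b1 probe set had changes of 0.14 and 0.04, and Sdf2l1, without a match, fell as well. Sdf2l1 spanned the widest range of the 10 genes, from -1.01 to 0.78. Calr followed with -0.53 to 0.48, Pdia4 with -0.47 to 0.35 and Hsp90b1 with -0.42 to 0.38.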

How the data were processed

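Hearts of 69 mice in 18 groups were measured on Affymetrix arrays. The values are log2 signals per probe set, deposited by the authors already summarised and normalized; MAS5 is named, without a role or version, per the submitters' processing notes, and the range of values gave the log2 unit. Scan batches were not analysed here. In R 4.3.3 and its package data.table (version 1.17.8), limma 3.58.1 fitted 1 mean per group (51 residual and 5.53 prior degrees of freedom) with an intensity trend to the 26773 probe sets with a group mean above 3.23, leaving out 104 controls. P-values were two-sided, adjusted by Benjamini-Hochberg over all tested probe sets, and the fit was tested on simulated data. Probe sets were named from the platform annotation through RefSeq gene symbols. Of 45141 probe sets 28898 have 1 symbol, 551 several and 15588 none. A gene's brightest tested probe set was used.

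Actin ratios were compared by exact permutation tests, two-sided, whose smallest p is 0.0286 for 4 against 4 and 0.1 for 3 against 3. All 10 promoters matched a RefSeq entry and were searched in Python 3.11.15. Named pathway genes are the called ones of lowest adjusted p, at most 4 per comparison. The alternatives were other normalizations, filters, fits, covariates and probe sets, the replicate number as a block, and leaving out each array. The genes, lists and alternatives were chosen with earlier results of these data known.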

Additional observations from a re-analysis of the deposited data

Results flagged for a closer look

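In 5 of 150 groups of 4 arrays, 1 array of a gene's brightest probe set stood far from the other three, where chance gives about 1 in 20. Air 2 h replicate 4 stood low for Pdia6, at 8.32 against 8.86 to 8.94 in the other air arrays, and for Pdia3, at 3.20 against 3.56 to 3.62. Herpud1 in HCN 1 h replicate 2 was 11.28, against 10.43 to 10.58 in the other HCN arrays. Xbp1 in KCN 2 h replicate 4 was 10.08, against 10.26 to 10.28, and in air 2 h replicate 3 it was 10.26, against 10.50 to 10.55. On its brightest probe set the change of Hspa5 differed between the routes by the test of the difference itself. The difference was 0.66 at 4 h and 0.70 at 24 h (HCN minus KCN).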

How the results depend on the processing

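No change that passed on a gene's brightest probe set turned its sign under any alternative tried. Changes that passed on other probe sets of Hsp90b1 and Xbp1 did differ in sign from those of another probe set of the gene, as given above. The calls were followed over 12 alternatives that leave out no array. Among these was the mean of a gene's tested probe sets. Pdia4, Pdia6 and Sdf2l1 have 1 tested probe set each, so for them that alternative repeats the same values. The fall of Sdf2l1 at KCN 2 h and the rise of Calr at KCN 24 h kept their call in 12. Calr at HCN 2 h kept it in 11, Pdia4, Pdia6 and Sdf2l1 at HCN 2 h in 10, Hspa5 and Sdf2l1 at HCN 24 h in 9 and Pdia6 at HCN 4 h in 8. On second probe sets Calr at KCN 24 h (0.39, adjusted p = 0.0646) and Hspa5 at HCN 24 h (0.41, adjusted p = 0.0670) did not pass. Calr at HCN 2 h did (-0.45, adjusted p = 0.0155). In counts of the 10 genes called, the 1 at HCN 4 h became 0 with median centring, with no filter, with separate fits per route and with only the groups compared. The 1 at KCN 24 h became 2 with separate fits (Hspa5 fell, Calr rose), 4 with only the groups compared (Hspa5, Hsp90b1, Calr and Herpud1), 2 with the actin ratio as a covariate and 0 with the second brightest probe sets, where the 1 at KCN 2 h became 2. The 4 at HCN 2 h became 0 with only the groups compared and 1 with the actin covariate. The 2 at HCN 24 h became 1 with separate fits, a fall of Hsp90b1, and 0 with only the groups compared or the actin covariate. The route difference at 4 h, 1 gene, became 0 with no filter. The causes were not tested. Fits of only the groups compared have fewer arrays and their own estimate of the spread, and the part of each was not tested.

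Leaving out 1 array at a time gave 0 to 0 genes at KCN 1, 4 and 8 h and HCN 1 h, 0 to 1 at KCN 2 h and HCN 4 h, 0 to 2 at KCN 24 h, 3 to 4 at HCN 2 h and 0 to 4 at HCN 24 h. For the route difference it gave 0 to 0 at 1 and 2 h, 0 to 1 at 4 h and 1 to 2 at 24 h. Replicate numbers recur across groups, but same-numbered arrays deviated from their group means with correlations of -0.142 to 0.318 over 34 pairs, and in no comparison was every pair above 0.1. With the replicate number as a block 2 genes passed at KCN 24 h (Hspa5 and Calr) and 2 at HCN 4 h (Pdia6 and Sdf2l1), and 13 of 34 cyanide arrays correlated best with the control of their own number.

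Counts over all probe sets moved by over 1.5 times in several settings. KCN 2 h (1765) had 918 with the replicate block and 544 with only the groups compared. KCN 4 h (605) had 916 with quantile normalization, 29 with only the groups compared, 1161 when adjusted over the 9 comparisons together and 229 with airway transcripts as a covariate. KCN 8 h (90) had 50 with no filter, 42 with the block, 16 with separate fits, 614 when adjusted together and 0 with only the groups compared. HCN 1 h (718) had 451 and 1116 with the groups compared and with joint adjustment. HCN 2 h (6763) had 1934 with only the groups compared and 3016 with the actin covariate, HCN 4 h (1967) had 1208 with only the groups compared, and HCN 24 h (3834) had 733 with the actin covariate. Without single arrays they ranged from 573 to 975 at KCN 1 h, 871 to 1918 at KCN 2 h, 56 to 947 at KCN 4 h, 3 to 223 at KCN 8 h, 1829 to 2771 at KCN 24 h, 474 to 647 at HCN 1 h and 2533 to 4789 at HCN 24 h. Pdia3, at a mean of 3.26, lies near background, where changes are understated.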
